A study of Arabidopsis thaliana with 8 samples.

Results

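The 22-nt small RNAs of es3 were set against those of the wild type Col, gene by gene, across the nuclear genome of Arabidopsis thaliana. A nuclear gene entered the set when its 22-nt TPM was 5 or more in the authors' es3 mean or in the authors' Col mean. That left 6830 genes of the 32210 nuclear genes and 32420 genes in all that the deposited table holds. The plants of es3 carry ein5-1 and ski2-3, and the plants of es3dd carry dcl4-2 and dcl2-1 on top of both. Each genotype was sequenced as 4 biological replicates of aerial parts at an age of 20 days, having spent 6 days on MS medium before 14 days in soil. Col appears only as the authors' mean and is not among the labelled libraries, so its growth, its batch and its genotype cannot be told apart. In whole aerial parts, fewer cells of a type and less RNA per cell cannot be told apart either.

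EIN5, also called XRN4, is the cytoplasmic exoribonuclease that degrades uncapped mRNA from its front end, and SKI2 is the helicase of the SKI complex, which feeds mRNA to the exosome from its tail. Where both routes fail, plant mRNA fragments can be copied into double-stranded RNA by RDR6 and cut by the Dicer enzymes DCL4, into siRNAs of 21 nt, and DCL2, into siRNAs of 22 nt. The 22-nt class is known for setting off further rounds of siRNA production and for repressing translation. A 22-nt read counted on a gene here can be such an siRNA, a microRNA variant or a fragment of the transcript, and the deposited table does not separate these.

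The authors' TPM is a read count brought to a common total and is not divided by gene length, so levels are compared between genotypes for a gene and not between genes. The effect given below is log2((es3 mean + 1)/(Col mean + 1)). A gene was called when the authors' deposited table gave an adjusted p-value below 0.05 and an absolute log2 fold change of at least 1. The 4 es3 libraries were recovered as whole reads from the es3 mean for 6805 of the 6830 members. They are named a to d here, since nothing ties them to replicate numbers, and 1 read was worth 0.758 TPM in library a and 0.946 in library d. The list of root genes and the list of floral organ identity genes, which mark tissues other than leaf, had no member, and their highest es3 means were 0 and 0.19 TPM. Most nuclear genes, 25380 of 32210, were below the level, so the lack of members in these lists does not check the tissue.

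Of the 6830 members, 1011 were called higher in es3, which is 14.8%, and 469 were called lower, which is 6.87%. Over all 14640 genes with an adjusted p in the authors' deposited table, 7.85% were called higher and 3.96% lower, and over the nuclear genes among them 7.95% and 3.43%. By effect alone, 1425 members (20.9%) stood at 1 or more and 667 (9.77%) at -1 or less, with a median effect of 0.14 over all members. Higher genes were thus 68.1% of both under the authors' scaling. That share was 60.1% when effects were centred on the members' median, 89.1% when centred on MIR loci and 99.9% when centred on plastid-encoded genes, shifts of 0.14, -0.52 and -1.95 in log2.

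These counts differed with the mean through which a member passed. Members that passed through the es3 mean alone numbered 1676, of which 791 were called higher and 0 lower, and members that passed through the Col mean alone numbered 948, of which 207 were called lower and 0 higher. Of the 4206 members at 5 or more in both means, 220 were called higher and 262 lower, with a median effect of 0.02. Members listed at 0 in Col numbered 94, of which 93 were called higher, and their effects depend on the value of 1 added to each mean. Just above the level stood AT4G06625, with means of 1.89 in Col and 5.001 in es3, and AT3G47370, with 1.91 and 5.0002, and neither was called. Just below it stood RR1, a cytokinin response regulator, with 1.24 and 4.998, and OVA5, with 4.998 and 2.197.

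**Figure D1:**
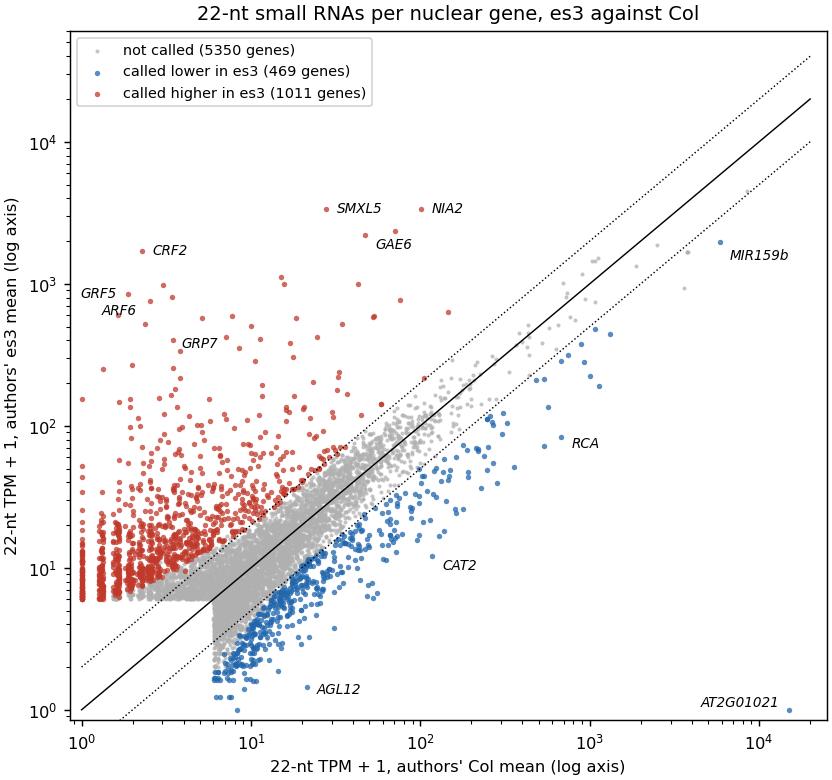
Authors' 22-nt mean of each of the 6830 members in Col (horizontal) and in es3 (vertical), both in TPM + 1 on log axes, with dotted lines at a factor of 2 from the diagonal. Of the 1011 genes called higher, 791 lie on the left, at under 5 in Col, and 220 lie at 5 or more in Col, and the 469 called lower run along the underside of the diagonal, with AT2G01021 alone at the lower right.

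In nearly all called members the recovered libraries lay on one side of the Col mean. Of the 1000 called-higher members with libraries, 997 had all 4 es3 libraries above the Col mean, and all 468 called-lower members with libraries had all 4 below it. The calls rest on the same es3 data, so this is no separate support for them. Of 5337 uncalled members with libraries, 1500 had all 4 above the Col mean and 1302 had all 4 below it. The median coefficient of variation over the 4 libraries was 25.1% among called-higher members and 39.0% among called-lower members. The 10 called-higher members with the most 22-nt RNA in es3 held 32.9% of the summed es3 signal of that class, and the top 100 held 69.8%. Summed over the 1011 called-higher members, 22-nt TPM went from 4638 in Col to 54374 in es3 and stood at 5815 in es3dd. In the 21-nt class the same genes summed to 9644, 184598 and 15511 TPM. The 469 called-lower members summed at 22 nt to 49379 TPM in Col against 10595 in es3, with 24056 in es3dd, and AT2G01021 alone supplied 15030 of the Col sum. The direction of these sums from Col to es3 follows from the choice of genes by their calls. Over all 6830 members 22-nt TPM summed to 191226 in Col and 192910 in es3, and over the uncalled members to 137209 and 127941.

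The 12 members with the highest effects were picked among those with an adjusted p below 0.05. Their p-values and es3 libraries are thus no separate support. All but SMXL5 passed through the es3 mean alone, where a call of lower could not arise. Among the 12, CRF2, a cytokinin response factor on chromosome 4, stood first, at an effect of 9.55. It had 1.26 TPM in Col, 1692 in es3 and 4.11 in es3dd. GRF5, a growth-regulating transcription factor that promotes leaf cell division, went from 0.88 to 847, and AT2G39870, which RefSeq leaves uncharacterized, from 2.02 to 978. The authors' deposited table gave adjusted p-values of 2.2e-44, 8.9e-30 and 4.9e-55 for them. CRF2 lay above the reach of the recovery and the other two had several solutions, so that their spread over libraries is not given.

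ARF6, an auxin response factor, had 1.53 TPM in Col and 732, 748, 748 and 795 in es3 libraries a to d, a mean of 756 ± 27.5 (SD, n = 4). Its 4 libraries lay within a narrow band far from the Col mean, and es3dd stood at 2.97. DFL1, an enzyme of the GH3 family that joins auxin to amino acids, had 0.63 in Col and 553, 664, 637 and 558 in es3. The second GH3 member, WES1, was listed at 0 in Col and had 142, 172, 160 and 142 in es3. All 4 libraries of both GH3 genes lay above the Col mean. NPY5, an NPH3-family protein of auxin-guided organ formation, had 2.40 in Col and 805, 853, 788 and 795 in es3. The authors' deposited table gave adjusted p-values of 1.2e-40 for ARF6, 5.1e-21 for DFL1, 5.1e-18 for WES1 and 2.3e-56 for NPY5.

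PXY, the receptor kinase that keeps the cambium dividing, had 1.38 TPM in Col and 478, 553, 547 and 503 in es3. ATHB8, an HD-ZIP III transcription factor of vascular cells, had 0.99 in Col and 254, 255.1, 280.4 and 275 in es3. All 4 libraries of both genes stood far above Col. SMXL5, which acts in phloem formation, went from 26.9 to 3352. GRP7, a glycine-rich RNA-binding protein, had 2.45 in Col and 441, 387, 392.2 and 386 in es3. Its es3dd mean was 77.5 TPM, while the other 11 had at most 5.21. FMO (AT1G12200), a flavin monooxygenase, completed the 12, with 0.34 in Col and 248 in es3.

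**Figure D2:**
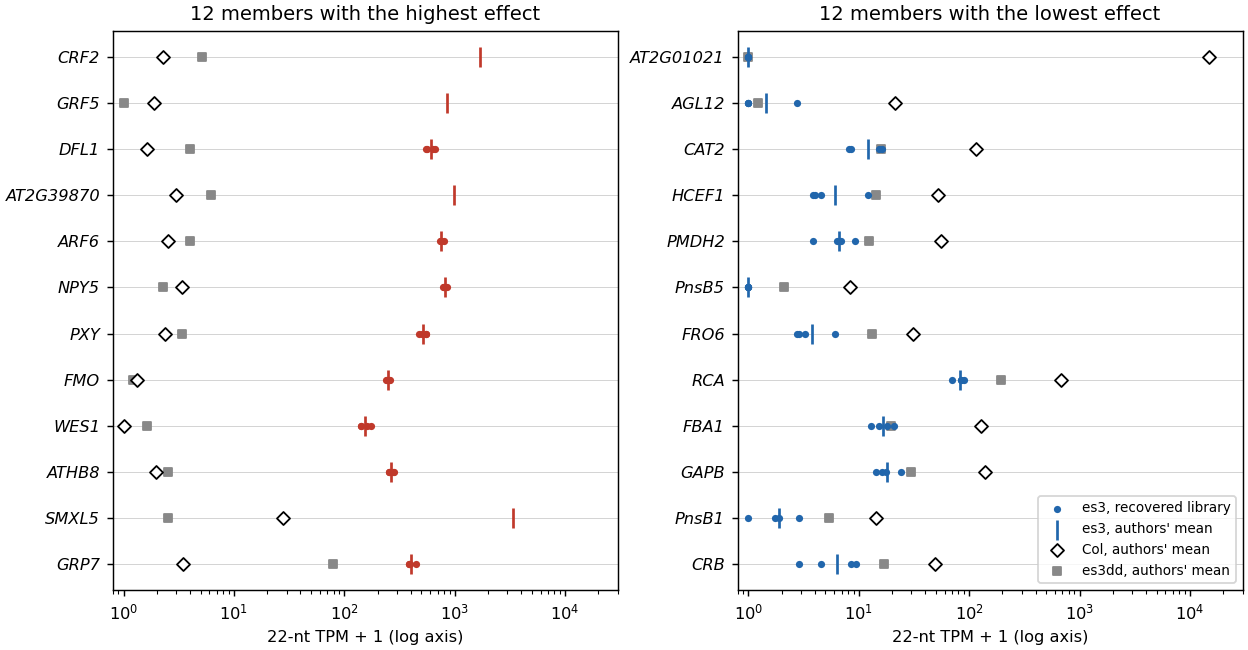
22-nt TPM + 1 (log axis) of the 12 members with the highest effect (left) and the 12 with the lowest (right), with each recovered es3 library as a point, the authors' es3 mean as a bar, the Col mean as a diamond and the es3dd mean as a square. On the left the Col and es3dd means both sit below es3, highest for SMXL5 in Col (26.9) and for GRP7 in es3dd (77.5), and on the right the es3 libraries sit below the Col mean.

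Among genes known for 22-nt siRNAs in this double mutant, NIA1, NIA2, SMXL4 and SMXL5 were listed, and all 4 were called higher. NIA1 and NIA2 encode nitrate reductase, and SMXL4 and SMXL5 are phloem genes. The study chose them on these samples, so their direction is no independent evidence. NIA2 went from 100.3 TPM in Col to 3343 in es3, with 17.7 in es3dd, and NIA1 from 75.3 to 769.9 (7.43 in es3dd). SMXL4 had 17.5 in Col and 536, 585, 607 and 561 in es3. These 4 genes already held 22-nt RNA in Col, and all 4 passed the level in both means. Of the other SMXL genes, SMXL7, a repressor of strigolactone signalling, had 4.15 in Col and 538, 567, 602 and 588 in es3 and was called higher. SMAX1 (11.1 and 20.4), SMXL2 (0.99 and 5.41) and SMXL6 (2.64 and 5.28) were not called.

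Over 13 lists of known microRNA and tasiRNA targets, 40 of 73 genes were members. Of the 40, 11 stood at 5 or more in both means. Of these 11, 9 were called higher (TIR1, AFB2, AFB3, TCP2, HAM3, PHO2, APS1 and the tasiRNA-targeted ARF2 and ARF4) and 1 lower. Among all coding members at 5 or more in both means, 184 were called higher, 211 lower and 1392 not called. Over all 4206 members at that level, pseudogenes included, 220 were called higher and 262 lower. The other 29 of the 40 passed through the es3 mean alone, where a call of lower could not arise. Their 26 calls of higher are given as a description only. The lists were drawn up with earlier results of these data known. A microRNA guides the AGO1 slicer to a near-complementary site in the mRNA, and the cut leaves a fragment without a cap and a fragment without a tail, which EIN5 and the exosome degrade. The microRNAs below guide 5 of the target groups described next, and are shown with their seed (bases 2 to 8) in capitals, read from RefSeq TAIR10.1.
miR156a-5p: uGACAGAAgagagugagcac
miR165a-3p: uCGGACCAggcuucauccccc
miR167a-5p: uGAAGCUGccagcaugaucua
miR171a-3p: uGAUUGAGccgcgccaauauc
miR393a-5p: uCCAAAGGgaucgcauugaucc

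Their sites in the mRNA, on the strand of the gene and with the bases that pair by A with U or G with C in capitals, show how close the match is.
HAM1 for miR171: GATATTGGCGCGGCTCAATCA
REV for miR165: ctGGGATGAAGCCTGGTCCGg
SPL2 for miR156: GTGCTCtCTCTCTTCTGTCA
ARF6 for miR167: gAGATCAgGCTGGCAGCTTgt
AFB2 for miR393: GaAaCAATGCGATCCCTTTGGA
The HAM1 site (chr2:18619128-18619148, minus strand) pairs with 0 bases left over, the SPL2 site (chr5:17360758-17360777, minus strand) with 1, the AFB2 site (chr3:9870237-9870258, plus strand) with 2 and the ARF6 site (chr1:10686478-10686498, minus strand) with 4. The REV site (chr5:24398787-24398898, plus strand) leaves 3 bases unpaired and spans an intron. All 5 sites lie in coding sequence.

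The HD-ZIP III genes, the leaf-polarity and vascular transcription factors that miR165 and miR166 target, had 5 members, which all passed through the es3 mean alone and were called higher, with effects from 4.15 to 7.07. REV had 2.44 TPM in Col and 238, 291, 241 and 249 in es3, and PHB had 2.39 and 167, 169.5, 172 and 148. All 4 libraries lay above the Col mean in both genes, and es3dd stood at 1.501 and 4.35. The 4 members among ARF genes of miR160 and miR167 likewise passed through es3 alone and were called higher, among them ARF10 (1.22 in Col, 98.2 ± 13.3 in es3, SD, n = 4) and ARF8 (3.81 and 101 ± 2.88). The SPL genes, which time the change from juvenile to adult leaves under miR156, had 6 members of 11 genes, again all through es3 alone and called higher. SPL2 had 1.87 in Col and 158, 166.1, 147 and 148 in es3, while SPL9 and SPL10 reached 8.84 and 5.197 in es3. All 22-mers of SPL13A and SPL13B occur again in the nuclear genome, and their values, 3.74 and 2.55 in Col and 15.7 for both in es3, are uncertain.

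HAM1, HAM2 and HAM3, the GRAS proteins of shoot stem cells, were all called higher, and HAM1 had 4.15 TPM in Col and 76.6, 86.4, 99.4 and 93.6 in es3. The auxin receptors TIR1, AFB2 and AFB3 were called higher with smaller effects of 1.39, 2.68 and 1.11, from Col means of 11.4, 19.3 and 30.2. AFB2 had 143, 137, 124 and 114 in es3. TOE1 and TOE2, the AP2-type targets of miR172, went from 2.58 to 62.3 and from 0.88 to 14.8. The TCP genes of miR319 gave 2 of 4, TCP2 (6.19 to 47.7) and TCP4 (3.54 to 23.9), while TCP10 (2.71 to 7.74) and TCP24 (2.89 to 7.96) were not called. The ARF genes targeted by tasiRNAs gave 3 of 3, with effects from 1.55 to 2.32. GRF3 (0 in Col, 11.7 in es3), MYB33 (0.31 and 16.98), MYB65 (0 and 5.904) and NFYA3 (0 and 7.83) were called higher. None of the 6 NAC targets of miR164 was a member, and their highest es3 mean was 1.72. Among targets for copper, sulfate and phosphate, APS1 and APS3, which activate sulfate, and PHO2, the ubiquitin conjugase of phosphate balance, were called higher. PHO2 had 8.51 in Col and 98.6, 114, 117 and 103 in es3. CSD2, a copper superoxide dismutase, was the member called lower, from 14.7 to 6.30, with an adjusted p of 0.046 in the authors' deposited table.

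**Figure D3:**
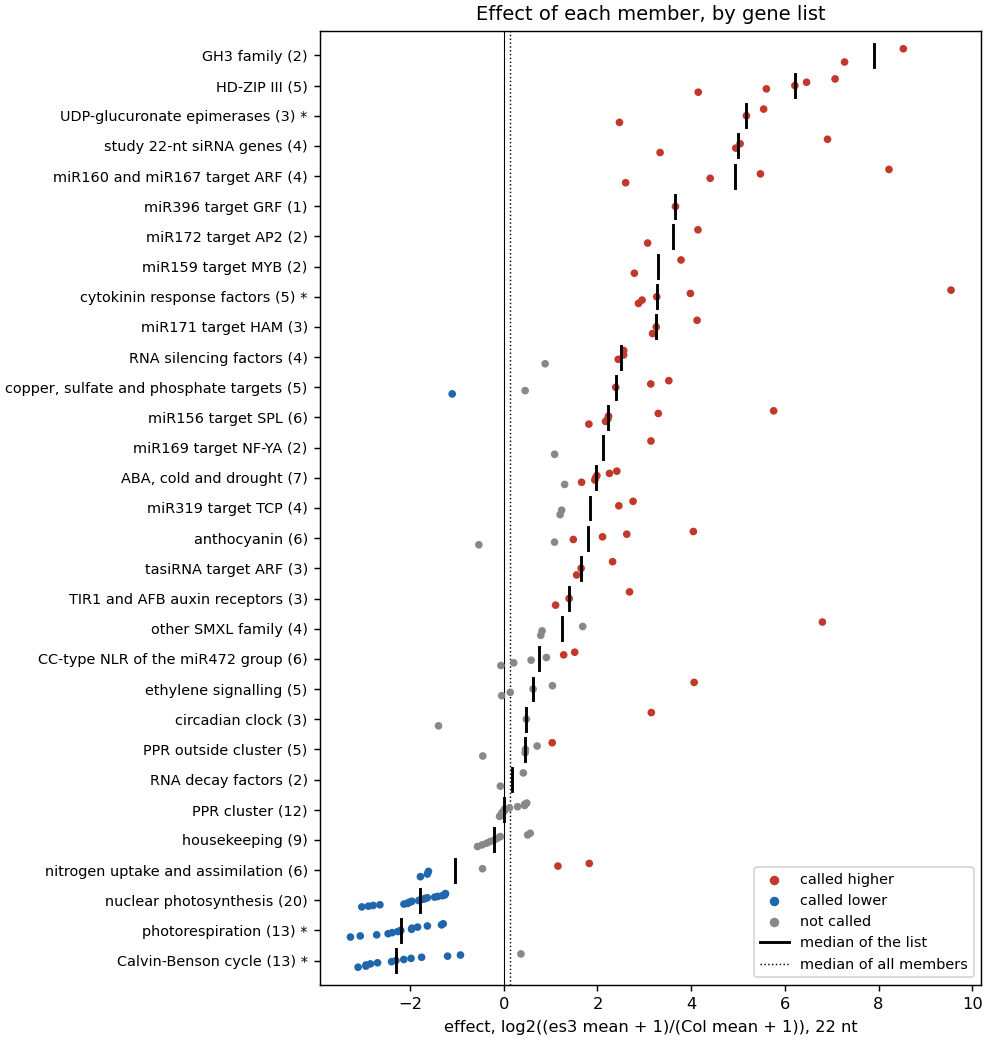
Effect of every member of each gene list, coloured by the call, with the list median as a bar, the number of members in brackets and an asterisk at the 4 lists made after values were seen. The members of the 13 target lists, 29 of 40 of which passed through es3 alone, lie right of 0 apart from CSD2 at -1.10, and the 3 lists of photosynthesis and photorespiration lie left of 0 apart from CP12-1 at 0.37, though centred on plastid-encoded genes the median of nuclear photosynthesis turned to 0.15.

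Of 18 genes of the silencing machinery 4 were members, and AGO1, AGO2 and AGO7 were called higher. AGO2 and AGO7 passed through the es3 mean alone, where a call of lower could not arise. AGO1, the main slicer, had 13.5 TPM in Col and 72.0, 90.7, 77.2 and 97.4 in es3. AGO2 had 1.57 and 14.4, 13.6, 11.5 and 17.02, while its 21-nt means stood at 94.0 in Col, 92.3 in es3 and 98.9 in es3dd. DCL1, which makes microRNAs, had 16.8 in Col and a mean of 31.9 in es3, with a log2 fold change of 0.93 in the authors' deposited table, under the minimum for a call. AGO1 and AGO2 are targets of miR168 and miR403.
AGO1 for miR168: TTCCCGAgCTGCAtCAAGCtA
AGO2 for miR403: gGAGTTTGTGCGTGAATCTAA
The AGO1 site (chr1:17891529-17891549, minus strand) is coding and leaves 3 bases unpaired, and the AGO2 site (chr1:11185223-11185243, plus strand) lies in the 3′ UTR and leaves 1. Among 15 genes of RNA decay only RRP44A (6.71 and 9.29) and UPF1 (6.30 and 5.94) were members and neither was called. The mutated genes were below the level, EIN5 at 2.70 in Col and 2.65 in es3 and SKI2 at 1.18 and 1.04, so 22-nt reads on them do not check the labels. In the ethylene pathway, for which ein5 was named, EBF1, the F-box protein that removes EIN3, had 10.6 in Col and 186, 183, 204 and 200.5 in es3. It was called higher, whereas EBF2 (5.08 and 11.5), EIN2, EIN3 and EIL1 were not.

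The lists of cytokinin response factors and UDP-glucuronate epimerases were made after the values of CRF2 and GAE6 had been seen, so their counts describe that choice. All 5 cytokinin response factors among the members passed through es3 alone and were called higher. CRF6 had 0.97 in Col and 30.2 ± 5.46 in es3 (SD, n = 4), and CRF1, CRF3 and CRF4 were listed at 0 in Col and had 8.62, 6.34 and 6.74 in es3. The UDP-glucuronate epimerases, which make a sugar for pectin, had 3 members, all called higher. GAE6 went from 46.1 to 2201 and GAE1 had 10.2 in Col and 410.2, 411, 419 and 384 in es3. AK3, an aspartate kinase, stood at 69.5 in Col and 2354 in es3.

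Of 7 members for ABA, cold and drought 6 were called higher, with effects from 1.299 to 2.41 over the 7. Of the 7, 5 passed through the es3 mean alone, where a call of lower could not arise. ERD10, a dehydrin, had 10.3 TPM in Col and 50.8, 77.1, 46.1 and 63.4 in es3, and RD29A had 4.70 and 21.2, 20.3, 20.4 and 22.7. In the anthocyanin list 4 of 6 were called higher, including the MYB regulators PAP1 (2.95 and 16.03) and PAP2 (0 and 5.17) and the glycosyltransferase UF3GT (1.52 and 40.7). Of these 6 members, 3 passed through the es3 mean alone. CHS, chalcone synthase, was not called, at 59.1 in Col and 40.6 in es3. Of the 6 members among NLR immune receptors of the miR472 group, RSG1 (16.4 and 48.8) and RSG2 (27.0 and 66.9) were called higher. The NLR gene AT5G43740 held 153 in Col and 288 ± 17.7 in es3 (SD, n = 4), with a log2 fold change of 0.92 in the authors' deposited table. Of the 3 clock members ELF3 was called higher, listed at 0 in Col and at 7.87 in es3, while LHY (5.61 and 8.23) and CCA1 (6.56 and 1.88) were not called.

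The PPR genes of the siRNA cluster on chromosome 1 gave no call. Their products are RNA-binding proteins of organelles, and their mRNAs are targets of miR161 and miR400 and sources of phased siRNAs in the wild type. All 12 members passed the level in both means, 0 were called in either direction, and the effects ran from -0.09 to 0.49 with a median of 0.01 that turned to -0.13 when centred on the members. By an adjusted p below 0.05 alone, AT1G62914 (1027 and 1443), AT1G63080 (1116 and 1520) and AT1G63400 (1067 and 1453) differed in the authors' deposited table, at log2 fold changes of 0.49, 0.45 and 0.44. AT1G63150 had 270.0 in Col and 278, 277, 253 and 275 in es3, so that the Col mean lay inside the es3 libraries. In es3dd the 4 stood at 1.94, 6.68, 1.94 and 2.62. Over the 12, a median of 54.8% of the 22-mers of a gene occur again in the nuclear genome, so reads may be shared between the copies. Sites for both microRNAs are shown from RPF2, which had 84.9 in Col and 104 in es3, and from AT1G63080, to set beside those of the genes called higher.
RPF2 for miR161: ACCCtGATGTAtTCACTTTCA
RPF2 for miR400: GTGACTTATAATACgCTtATA
AT1G63080 for miR161: AtCCaaATGTAGTCACTTTCA
AT1G63080 for miR400: GTaACTTATAATACaCTtATA
The RPF2 sites (chr1:23205678-23205698 and chr1:23205457-23205477, minus strand) leave 2 bases unpaired each, and the AT1G63080 sites (chr1:23389789-23389809 and chr1:23389568-23389588, minus strand) leave 3 each. Members with a site of at most 3 unpaired bases numbered 10 for miR161 and 12 for miR400, and none of them was called. Outside the cluster 1 of 5 PPR members was called higher, AT1G12300, with 16.5 TPM in Col and 35.6, 46.6, 25.7 and 31.2 in es3. Its 4 libraries lay above the Col mean, and its sites for miR161 and miR400 leave 4 bases unpaired each.

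All 20 members of the nuclear photosynthesis list were called lower. Their effects ran from -3.03 to -1.24 with a median of -1.80, which turned to 0.15 when centred on plastid-encoded genes, and all 4 libraries of each lay below its Col mean. RCA, the activase of Rubisco, had 676 TPM in Col and 84.2, 69.5, 89.6 and 84.2 in es3. RBCS3B, a small subunit of Rubisco, had 534 in Col and 65.2, 68.6, 77.2 and 73.8 in es3. The light-harvesting gene LHCB1.3 had the effect nearest 0 in the list, from 885 to 373 ± 14.1 (SD, n = 4). In es3dd these genes stood between, RCA at 194, RBCS3B at 147 and LHCB1.3 at 498. Up to 43.2% of the 22-mers of a gene in this list are repeated in the nuclear genome, so values of close copies such as the RBCS and LHCB1 genes are uncertain.

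The lists for the Calvin-Benson cycle and for photorespiration were added after values had been seen. Of 13 Calvin-Benson members 12 were called lower, and all 13 members for photorespiration were. GAPB, a subunit of plastid glyceraldehyde-phosphate dehydrogenase, had 138 in Col and 16.7, 15.3, 23.1 and 13.2 in es3. CAT2 (AT4G35090), the leaf catalase, had 116 in Col and 15.2, 14.4, 7.10 and 7.57 in es3. SHM1, a mitochondrial serine hydroxymethyltransferase, had 70.8 and 10.6, 13.6, 13.3 and 10.4. The 3 lists together hold 45 of the 469 called-lower members, or 9.59%. PGLP1, a phosphatase of photorespiration, has all of its 22-mers repeated, so its value is uncertain. CP12-1, a regulator of the Calvin-Benson cycle, was at 36.4 in Col and 47.2 in es3 and not called.

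Plastid-encoded RNA moved with these losses. Of 84 plastid-encoded genes at the same level 80 were called lower, with a median effect of -1.95. Mitochondrion-encoded genes gave 1 higher and 5 lower of 83, with a median of 0.06. Over the nuclear members 14.8% were called higher and 6.87% lower. The 9 housekeeping members gave 0 calls and a median of -0.20. Centred on the plastid-encoded genes, the medians of the Calvin-Benson and photorespiration lists were -0.35 and -0.25. Centred on MIR loci, the medians for nuclear photosynthesis, the Calvin-Benson cycle and photorespiration were -1.28, -1.78 and -1.68. The part that the lower plastid-encoded level plays in the nuclear losses was not tested.

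Among 6 members for nitrogen assimilation beyond nitrate reductase the calls went both ways, with GLN1;1 (5.38 and 21.6) and NIR1 (7.01 and 16.8) called higher and GLN2 (70.8 and 19.9), GLN1;2 (27.2 and 8.10) and GLU1 (96.9 and 31.1) called lower. The plastid glutamine synthetase GLN2 had 21.2, 15.3, 19.5 and 23.6 in the es3 libraries. PnsB5, a subunit of the chloroplast NDH complex, had 7.31 in Col and 0 reads in all 4 es3 libraries. AGL12, a MADS-box gene known from roots, had 20.3 in Col and 0, 0, 1.77 and 0 in es3, with 0.22 in es3dd. At 21 nt AGL12 had only 0.97 in Col. AT2G01021, a locus of 102 bases on chromosome 2 (chr2:6571-6672, plus strand) annotated as coding and lying downstream of ribosomal RNA genes, had 15030 in Col and was listed at 0 in es3 and es3dd in both size classes. All of its 22-mers occur again in the nuclear genome, and no fold is given for it. AT3G06435, an uncharacterized gene on chromosome 3, had the highest es3 mean of all members. It stood at 8479 in Col, 4487 in es3 and 1255 in es3dd, and with an effect of -0.92 it was not called.

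Of 67 members that are MIR loci, which encode microRNA precursors, 19 were called lower and 7 higher. Over all members 6.87% were called lower and 14.8% higher. The median effect of the MIR loci was -0.52, which turned to 1.43 when centred on plastid-encoded genes. Summed over the 19, 22-nt TPM was 11768 in Col, 4137 in es3 and 13400 in es3dd. Loci with a mature product of 22 nt in the annotation numbered 16, of which 3 were called higher and 3 lower. At the other 51, 22-nt reads are longer or shorter than the annotated product, and 4 were called higher and 16 lower. The sequences below belong to 4 seed groups in which the calls went one way, with the seed in capitals.
miR157a-5p: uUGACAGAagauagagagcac
miR319a: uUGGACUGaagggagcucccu
miR159b-3p: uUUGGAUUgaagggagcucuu
miR166a-3p: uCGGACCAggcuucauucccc

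The group with seed UGGACUG held MIR319a, MIR319b and MIR319c, with effects of -2.16, -2.75 and -1.94. MIR319a had 1001 TPM in Col and 72.0, 389.9, 134 and 295 in es3. Library a was lowest and b highest, and all 4 lay below the Col mean. MIR319c spread from 156.97 to 1624 around a mean of 938, against 3591 in Col, and was not called, at an adjusted p of 0.13 in the authors' deposited table. The group with seed CGGACCA, shared by miR165 and miR166, had 9 loci, of which 3 were called lower and 0 higher, with effects from -1.57 to -0.71. MIR165b had 1313 in Col and 186, 529, 374 and 681 in es3, again lowest in library a. MIR166e, MIR166f and MIR166g were not called, at 3758, 3756 and 3781 in Col and 1667, 1663 and 1674 in es3. MIR166a to MIR166d, with the same mature 3′ sequence, had Col means from 86.4 to 1079. MIR159b went from 5835 in Col to 1973 in es3, with 6317 in es3dd. The gains were at MIR156a (25.7 in Col and 108, 80.5, 90.5 and 83.2 in es3), MIR156c, MIR157a and MIR157b, whose seeds GACAGAA and UGACAGA are offset by a base, and at MIR828, MIR843 and MIR861. MIR156b, MIR156d and MIR157c, with the same mature 5′ sequences, had effects of 0.35, 0.08 and -0.24 and were not called. MIR157a and MIR157b had the same Col mean, as did MIR447a and MIR447b, and 43.2% to 51.4% of the 22-mers of these 4 loci are repeated, so their values are uncertain.

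**Figure D4:**
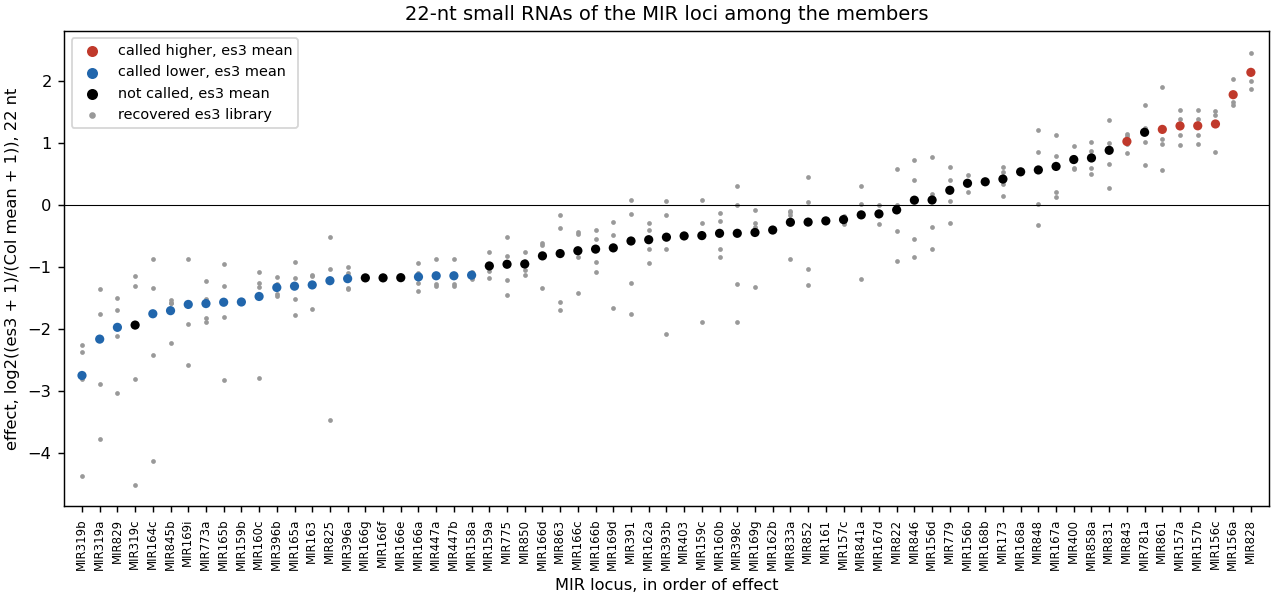
Effect at 22 nt of the 67 MIR loci among the members in rising order, with the es3 mean coloured by the call and each recovered es3 library as a small grey point against the same Col mean. MIR319b stands lowest at -2.75 and MIR828 highest at 2.14, and the libraries of the MIR319 loci spread widely.

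Coding genes without introns were called higher in a larger share of cases than genes with introns. Of 961 single-exon members 433 were called higher, or 45.1%, against 28.2% with 2 exons, 18.2% with 3 to 5, 11.7% with 6 to 10 and 10.8% with 11 or more. Calls of lower ran from 4.79% of single-exon members to 13.01% with 6 to 10 exons. Of the 433, only 72 stood at 5 or more in both means, where the level does not force a direction. Among members at 5 or more in both means, 19.5% of 369 single-exon members and 7.90% of 1418 others were called higher. Of all 26712 nuclear coding genes scanned, 20.6% have a single exon. Exon number played no role in the choice of members, and the difference was not tested. Of the 12 genes with the highest effects CRF2 alone has a single exon.

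**Figure D5:**
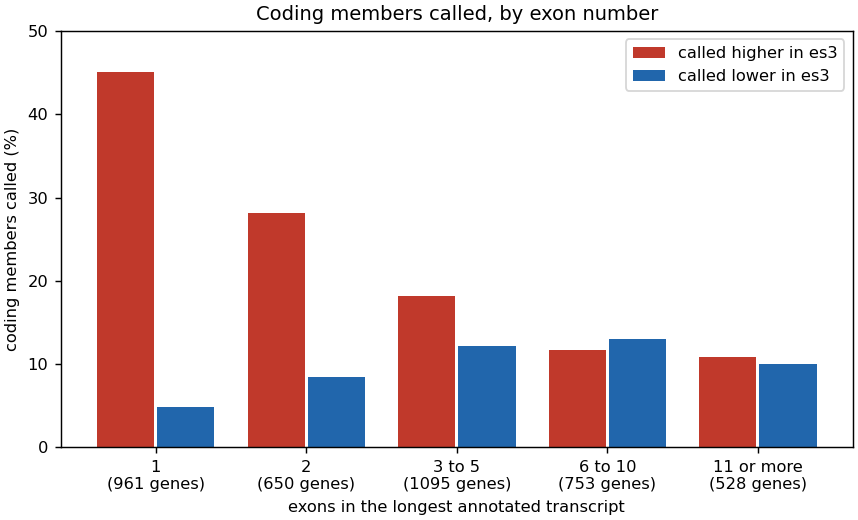
Share of coding members called higher (red) or lower (blue) in es3 at 22 nt, by the number of exons in the longest annotated transcript, with the number of members below each pair of bars. The share called higher goes from 45.1% with 1 exon to 10.8% with 11 or more.

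Sites for 22 microRNA families were counted across all coding transcripts, allowing up to 3 unpaired bases and no gap. A site was found in 32 of 960 called-higher coding members (3.33%), 0 of 385 called lower and 24 of 2642 not called, against 0.427% of the 26712 transcripts. Of the 32, 23 passed through the es3 mean alone. Among coding members at 5 or more in both means, a site was found in 9 of 184 called higher (4.89%), 0 of 211 called lower and 19 of 1392 not called (1.36%), a difference that was not tested. The 9 are TIR1, AFB2, AFB3, HAM3, PHO2, APS1, AGO1, RSG1 and RSG2, all described above from the lists, so they add no separate set of genes. Of the 32 sites 29 lie in coding sequence. The families were picked for their known targets. Of the 24 uncalled members with a site, 14 hold a site for miR161 or miR400 and 10 one for miR472, the microRNA of the NLR genes. The search misses sites with bulges or more mismatches, and ARF6 with 4 unpaired bases is not among the 32.

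Over all members 14.8% were called higher and 6.87% lower. By class of gene, 960 of 3987 coding members were called higher and 385 lower, with a median effect of 0.31. Pseudogenes, in which a median of 44.8% of the 22-mers occur again in the nuclear genome, had 41 called higher and 41 lower of 2564, with a median of 0.07. Transcribed pseudogenes gave 3 and 17 of 185. The pseudogene AT4G06477 had 90.7 in Col and 91.0, 82.2, 97.6 and 92.7 in es3, so that the Col mean lay inside the es3 libraries. Nuclear members with at least 50% of their 22-mers in an organelle genome numbered 84, of which 82 carry AT2G07 identifiers. Of the 84, 0 were called higher and 7 lower, a share of lower calls close to that over all members. By chromosome, the share called higher ran from 12.4% on chromosome 2 to 16.05% on chromosome 1.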

How the data were processed

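Small RNA of Arabidopsis aerial parts was sequenced in 4 es3 and 4 es3dd libraries, and the deposited table adds a Col mean. The authors deposited, per gene and read length, 1 TPM mean a genotype, which from its values is a read count on a common total with no division by length. The counting rule, the annotation and the treatment of reads with several matches are not given in the sources used here. The deposited log2 fold changes of es3 over Col are the authors', per the file headers. The deposited p-values and adjusted p-values are the authors' too, per the file headers. Per the submitters' processing notes, the tools were DESeq2, SAMtools 1.9 and Bowtie 1.2.2 and the build was TAIR10, without their roles.

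Members were nuclear genes at 5 TPM or more in the es3 or the Col mean. Members and gene lists were chosen with earlier results of these data known, and 4 of 36 lists were added after values were seen. The effect was log2((es3 + 1)/(Col + 1)), with no test, and calls used the authors' adjusted p below 0.05 with an absolute log2 fold change of at least 1.

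An es3 mean is the average of 4 libraries, each a whole number of reads times a factor of its library, so the 4 libraries were solved for each gene to a tolerance of 5e-15. A single solution was found for 6803 members, 2 were 0 in all libraries, 5 had several solutions and 20 lay above the reach of 4600 reads. Up to 1500 reads, 6765 of 6765 members had a single solution. On data simulated from means of up to 1500 reads, 500 of 500 means were recovered. In that range 0 of 500 random values matched. No simulation was run above 1500 reads, where the 5 members with several solutions lay. Libraries given for genes above it, such as ARF6 and NPY5, rest on a single solution without that check. The factors set 1 read at 0.758 to 0.946 TPM, depending on the library. The recovered libraries carry no replicate numbers. No such recovery was used for Col or es3dd.

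Genes named were the 12 highest and the 12 lowest effects with an adjusted p below 0.05, the 10 highest es3 and the 10 highest Col means, up to 4 members a list with the largest absolute effects, the mutated genes, the genes next to the level, and the 5 members at 50 or more in both means with the effect nearest 0. List members named beyond these were chosen after their values were seen. Symbols, exons and sequences came from RefSeq TAIR10.1, in which 31722 of 32420 identifiers matched, and its coordinates are given. Sites for 22 microRNA families were searched without gaps in the longest transcript, with up to 3 unpaired bases and G:U counted as unpaired, and repeated 22-mers were counted over both strands of the nuclear genome. Scripts ran in Python 3.11.15 with numpy 2.4.6, pandas 2.3.3 and matplotlib 3.10.9.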

Additional observations from a re-analysis of the deposited data

Results flagged for a closer look

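Recovered es3 libraries were screened in 119 named genes for a library far from the other 3, and 8 genes had one. For continuous values chance flags about 1 in 20 groups of 4. That rate need not hold for genes with few whole reads, such as AGL12. The 22-nt TPM of SPL10 was 7.57 in one library and 4.24 to 4.55 in the others. For AGL12 one library held 1.77 and the others held 0. For GRP7 one library stood at 441 and the others at 386 to 392.2. GAE4, a UDP-glucuronate epimerase, had 9.86 against 4.44 to 5.09. HCEF1, the fructose-bisphosphatase of the Calvin-Benson cycle, had 11.02 against 2.84 to 3.55. FRO6, a ferric reductase of leaf cells, had 5.09 against 1.77 to 2.27. AT1G63150 of the PPR cluster had a lowest library of 253 against 275 to 278. SMXL2 had a lowest library of 0.946 against 6.78 to 7.10. The causes were not tested.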

How the results depend on the processing

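Counts of members with an effect of at least 1, higher and lower, were 1425 and 667. They became 858 and 293 with 5 added to each mean, 743 and 378 at a level of 10, and 3750 and 1331 both at a level of 1 and with no level. Centred on MIR loci they were 2399 and 293, and centred on plastid-encoded genes 6098 and 8. The authors' calls of 1011 higher and 469 lower gave 307 lower at an adjusted p below 0.01 and 706 lower at an unadjusted p below 0.05. Other settings tried, among them 0.5 added, equal sums and the exclusion of members with over 50% of their 22-mers repeated, kept these counts within 1.5 times. Over members with recovered libraries, leaving out 1 es3 library at a time gave 1396 to 1419 higher (1414 with all 4) and 697 to 730 lower (663 with all 4), and 0 of 121 named genes with libraries changed sign. Adding 5 moved 23 list medians by more than the spread between the recovered libraries, and 8 by less. It moved 78 named genes' effects by more than that spread (by 0.1 for genes without libraries), and 61 by less. By the same measure 31 list medians moved when centred on MIR loci, and 31 when centred on plastid-encoded genes. On the housekeeping centre 19 moved and 12 did not, and on the members' centre 11 moved and 20 did not. The members' centre moved 52 named genes' effects and left 87 within the spread. List medians turned sign for housekeeping genes centred on MIR loci, for the PPR cluster centred on the members, and for nitrogen assimilation, nuclear photosynthesis, housekeeping genes and MIR loci centred on plastid-encoded genes. The housekeeping centre, the exclusion of AT2G01021 or of repeated members, and the list medians on the plastid-encoded centre were added after the data were seen. No paired analysis was possible because the Col libraries are not among the labelled samples and the recovered es3 libraries carry no replicate numbers. Values near 1 read, under about 1 TPM, are at the limit of depth, and Col has no spread here.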
